A study of Mus musculus with 9 samples.

Results

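The genes described here are the purine salvage enzyme Hprt, the salvage enzyme Aprt, the precursor enzyme Prps1 and the enzymes Ppat, Gart, Pfas, Paics, Adsl, Atic and Impdh2, 10 of the 24736 genes in the count table. They were chosen by gene symbol after Hprt had been seen to be near absent in WT and CdxKO cells and abundant in T/BraKO cells, to ask whether cultures without Hprt transcript differ in the transcripts of purine synthesis. The Hprt values therefore selected the set and are given as a description with no test, while the other 9 genes were tested.

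Cells obtain purine nucleotides by 2 routes. In salvage, HPRT attaches the free bases hypoxanthine and guanine to phosphoribosyl pyrophosphate (PRPP), and APRT does the same for adenine. In the de novo route, PRPP is built up stepwise into inosine monophosphate (IMP), which is then turned into AMP or GMP. Both routes draw on PRPP. Loss of HPRT can be selected for with base analogues, and its presence with medium containing hypoxanthine, aminopterin and thymidine, which is why the gene has long been used as a marker in mouse embryonic stem (ES) cells.

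The data were poly(A) RNA counts from caudal epiblast-like cells, ES cell derivatives that resemble the progenitors of the posterior embryo body. All cultures were mouse ES cells held for 2 days in N2/B27 medium with 10 ng/ml bFGF and 5 uM LGK974, an inhibitor of WNT secretion, and then also given the WNT pathway activator CHIR99021 until day 3 (72 h). WT (labelled wild-type), CdxKO (Cdx1/2/4-/-) and T/BraKO (T/Bra-/-) each had 3 biological replicates, and the 9 libraries held between 25124344 and 34705361 expected counts. Per the study's methods, all ES lines were derived from the XY line HM1 TetON, itself the WT control, and other lines of that study were made by targeting the HPRT locus followed by selection for HPRT. HM1 is known as an HPRT-deficient ES line. The number of clones behind each mutant, and whether the T/BraKO line carries a construct at Hprt, were not given in the sources used here, so differences between lines and effects of the mutations cannot be told apart.

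The labels were checked against the targeted genes and cell type markers. Normalised counts (counts divided by the library's size factor) of T averaged 12243 in WT and 13340 (SD 6780) in CdxKO, against 2295 in T/BraKO. Thus T transcript was lower but still present in T/BraKO. Cdx4 averaged 118, 1.64 and 175 normalised counts in the same order. Cdx1 averaged 536, 272 and 864, and Cdx2 averaged 4199, 1031 and 5354. Of the targeted Cdx genes, Cdx4 alone was thus near absent from CdxKO, while Cdx1 and Cdx2 transcripts were lower but still present. The 9 caudal epiblast markers included the targeted genes T, Cdx1, Cdx2 and Cdx4. DESeq2 with the replicate number as a block called 3 higher and 3 lower in T/BraKO than in WT. Of all genes tested, 4.17% and 4.38% were so called. In CdxKO against WT it called 0 higher and 7 lower (3.40% and 1.91% of all genes). In T/BraKO against CdxKO it called 5 and 2 (6.90% and 7.75%). Without the block the counts were 0 and 3, 0 and 5, and 5 and 2. The summed level of the 9 was 1048 to 1265 TPM (abundance corrected for transcript length) in WT. It was 618 to 1129 in CdxKO and 741 to 1096 in T/BraKO. That of 4 paraxial mesoderm markers was 25.9 to 46.7 TPM in WT and 14.3 to 64.3 in CdxKO, against 4.37 to 6.01 in T/BraKO, with 3 of the 4 under 1 TPM on average in T/BraKO, and the part of this difference in the purine gene results was not tested. Summed naive pluripotency, neural and endoderm markers stayed between 4.07 and 54.7 TPM in all libraries. Of their members, Klf4 (naive pluripotency) was higher in CdxKO than in WT in the DESeq2 fit without a replicate term (log2 0.62, adjusted p = 0.0267). With the replicate number as a block, Tfcp2l1 (naive pluripotency) was higher in T/BraKO than in WT (log2 0.30, adjusted p = 0.0233), Zfp42 (naive pluripotency) was lower in T/BraKO than in CdxKO (log2 −0.41, adjusted p = 0.0287), and Foxa2 (endoderm) fell in T/BraKO against both WT (log2 −1.40, adjusted p = 0.0204) and CdxKO (log2 −1.83, adjusted p = 4.21e-04). Their part in the purine gene results was not tested. The Y-linked gene Ddx3y, expected in an XY line, had 0 counts in all CdxKO libraries, which allows up to 3 in each, but 1664 to 1769 normalised counts in WT and 2117 to 2754 in T/BraKO.

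The promoters of Hprt, Paics and Ppat are shown. Hprt carries the difference that selected the set, and Paics and Ppat start close together on opposite strands. Each window runs 5′ to 3′ on the gene's own strand, from 250 bases before to 50 after the RefSeq start (GRCm38.p6): chrX:52987828-52988127 on the plus strand for Hprt, chr5:76951052-76951351 on the plus strand for Paics and chr5:76951529-76951828 on the minus strand for Ppat. Capitals mark the E-box CACGTG, the GC box GGGCGG and the CCAAT box CCAAT, searched on both strands, so that the last 2 may appear as CCGCCC and ATTGG.

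Hprt: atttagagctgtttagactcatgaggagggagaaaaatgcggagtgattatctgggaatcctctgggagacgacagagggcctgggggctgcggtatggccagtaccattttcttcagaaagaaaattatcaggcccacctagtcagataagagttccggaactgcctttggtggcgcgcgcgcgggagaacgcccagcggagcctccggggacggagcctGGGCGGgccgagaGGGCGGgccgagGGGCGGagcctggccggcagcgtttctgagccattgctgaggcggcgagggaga

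Paics: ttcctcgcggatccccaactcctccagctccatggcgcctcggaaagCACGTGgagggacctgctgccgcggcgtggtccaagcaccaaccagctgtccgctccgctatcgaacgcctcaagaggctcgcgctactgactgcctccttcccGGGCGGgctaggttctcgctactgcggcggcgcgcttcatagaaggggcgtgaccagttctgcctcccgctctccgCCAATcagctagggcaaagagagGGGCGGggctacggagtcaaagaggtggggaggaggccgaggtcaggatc

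Ppat: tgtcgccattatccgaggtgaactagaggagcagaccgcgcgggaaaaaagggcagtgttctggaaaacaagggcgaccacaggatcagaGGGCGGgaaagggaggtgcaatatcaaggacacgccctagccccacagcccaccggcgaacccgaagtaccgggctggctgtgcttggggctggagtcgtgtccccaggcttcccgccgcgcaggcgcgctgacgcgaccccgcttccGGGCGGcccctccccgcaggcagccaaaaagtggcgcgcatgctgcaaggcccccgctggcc

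The Hprt window held 3 GC boxes and neither of the other motifs. The Paics window held 1 E-box, 2 GC boxes and 1 CCAAT box, and the Ppat window 2 GC boxes alone. The Paics and Ppat starts lay 276 bp apart in RefSeq. Of the 10 genes, 9 had a window in the RefSeq table, all but Pfas. A GC box was found in 9 of these 9 (35.7% of all 32851 windows), a CCAAT box in 5 (37.4%), and an E-box in 3, those of Paics, Atic and Impdh2 (7.15%). These matches are letters in a window and were not tested as binding sites.

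Hprt (chromosome X, 52988137 to 53021659, plus strand, GRCm38 as for all gene positions here) was near absent in WT and CdxKO cells and among the more abundant transcripts in T/BraKO cells. The WT libraries held 25, 21 and 18 counts, equal to 1.54, 1.12 and 0.90 TPM. The CdxKO libraries held 20, 23 and 23 counts, or 1.36, 1.13 and 1.16 TPM. The T/BraKO libraries held 3254, 4461 and 4614 counts, or 191, 220 and 218 TPM. WT and CdxKO overlapped, and every T/BraKO library lay far above both. In bulk RNA, fewer cells with a transcript and less transcript per cell cannot be told apart.

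Mean normalised counts of Hprt were 21.7 ± 5.81 (SD, n = 3) in WT and 22.4 ± 2.37 in CdxKO, against 3938 ± 303 in T/BraKO. The mean in T/BraKO was 181 times that in WT and 176 times that in CdxKO, and the lowest T/BraKO library was 128 times the highest WT library. Hprt transcript in WT was thus low but above 0 in every library, at 0.552% of the T/BraKO mean. By mean TPM, Hprt ranked 12683 of 17921 genes with any TPM in WT and 12594 of 17922 in CdxKO, against 723 of 17891 in T/BraKO. Among the 10 purine genes it was the lowest in WT and CdxKO and the fourth highest in T/BraKO.

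**Figure D1:**
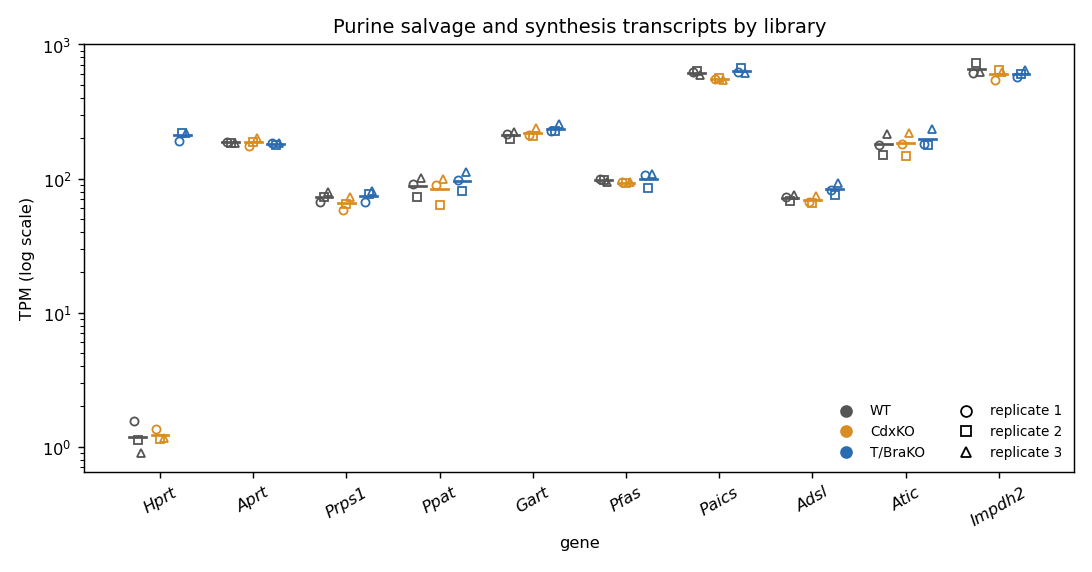
TPM of the 10 purine genes on a log axis, with 1 point per library, coloured by genotype and shaped by replicate number, and a bar at each group mean. Hprt lies between 0.90 and 1.54 TPM in WT and CdxKO and between 191 and 220 TPM in T/BraKO, while each of the other genes stays within a narrow band across genotypes.

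The genes flanking Hprt showed no difference of that size. Of 33 annotated genes starting within 0.5 Mb of Hprt, 24 were in the table and 7 had a mean of at least 10 normalised counts. Phf6, a chromatin-associated protein whose start lay at −75.9 kb from that of Hprt, averaged 3750 ± 317 normalised counts in WT and 3417 ± 293 in CdxKO, against 4090 ± 158 in T/BraKO. Its log2 difference between T/BraKO and WT was 0.12 (SE 0.10, adjusted p = 0.991). Gpc3, a glypican starting at −374 kb, averaged 2481 ± 514, 2041 ± 209 and 1579 ± 122, and its fall in T/BraKO against WT passed the test (log2 −0.65, SE 0.17, adjusted p = 0.00971). With the block, Gpc3 was also lower in T/BraKO than in CdxKO (−0.37, adjusted p = 4.92e-04) and in CdxKO than in WT (−0.27, adjusted p = 0.0396). Phf6 (0.26, adjusted p = 2.59e-04) and Mospd1 (0.38, adjusted p = 1.08e-04) were higher in T/BraKO than in CdxKO with the block. Across 460 genes of the X chromosome, the median log2 difference was −0.00 between T/BraKO and WT and 0.00 between T/BraKO and CdxKO.

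**Figure D2:**
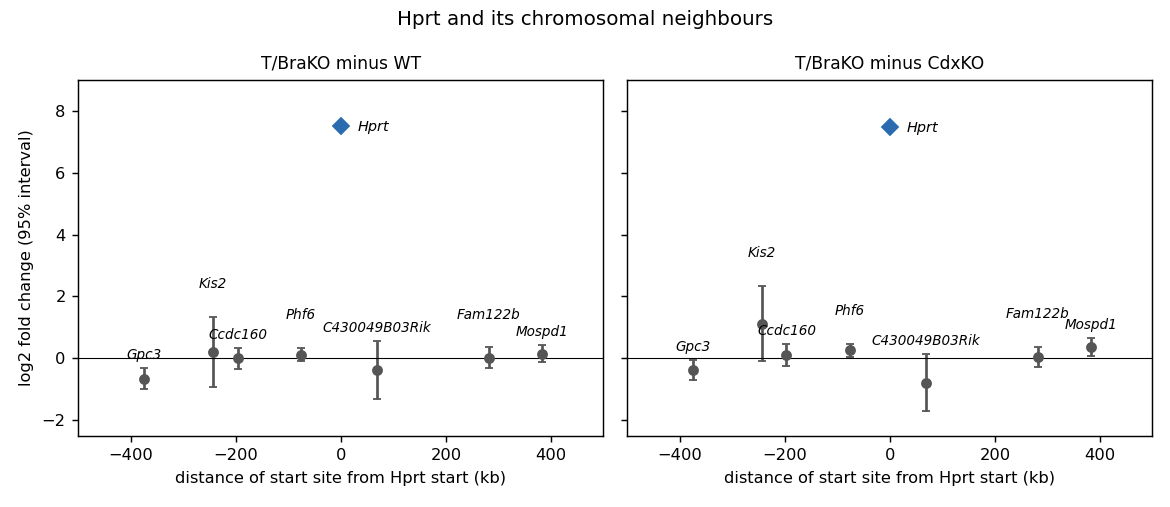
Log2 fold change of Hprt (diamond, given without an interval) and its 7 measured neighbours (circles, with 95% intervals) against the distance of their start sites from that of Hprt in kb, for T/BraKO minus WT and T/BraKO minus CdxKO. Hprt stands at 7.52 and 7.47, and the neighbours lie between −0.78 and 1.12.

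Of the 9 other purine genes, 0 passed the test between T/BraKO and WT, 1 rose in T/BraKO against CdxKO and 0 passed between CdxKO and WT. These counts come from DESeq2 with genotype as the only term and a Benjamini-Hochberg adjusted p of at most 0.05 over all genes, which called 1.32%, 3.58% and 0.693% of the genes tested, respectively. For T/BraKO against CdxKO, 0.984% of all genes were called higher. At an unadjusted p under 0.05 the members counted 1, 2 and 1, and edgeR called 0 in each of the 3 comparisons, with the same counts at an unadjusted p under 0.05.

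Libraries with the same replicate number deviated together, so the fit was repeated with the number as a block. Then 2 of the 9, Gart and Adsl, were higher in T/BraKO than in WT (4.17% of all genes tested were called higher), and 5 of the 9, Prps1, Ppat, Gart, Paics and Adsl, were higher than in CdxKO (6.90%). Paics alone was lower in CdxKO than in WT (1.91% of all genes were called lower). Among genes with a mean of at least 1000 normalised counts, as all 9 had, the shares called were 7.22%, 11.8% and 2.46%. With 1 replicate number left out in turn, the fit with the block called 0, 1 and 0 members against WT, 3 each time against CdxKO, and 0 each time between CdxKO and WT. The comparisons share libraries, so that a gene low in CdxKO can contribute to more than 1 of these counts.

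The estimated differences were small throughout, but their intervals without the block were wider than with it. The estimates here are from the fit without the block. Between T/BraKO and WT the 9 log2 differences ran from −0.08 to 0.24 with a median of 0.08, where the median of all genes was 0.01. All their 95% intervals lay between −0.28 and 0.58 without the block and between −0.19 and 0.35 with it. Between T/BraKO and CdxKO the differences ran from −0.01 to 0.30 with a median of 0.14, against 0.01 for all genes. The intervals lay between −0.26 and 0.65 without the block and between −0.14 and 0.41 with it. Between CdxKO and WT the differences ran from −0.15 to 0.05 with a median of −0.06, against −0.00. The intervals lay between −0.49 and 0.41 without the block and between −0.29 and 0.15 with it.

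**Figure D3:**
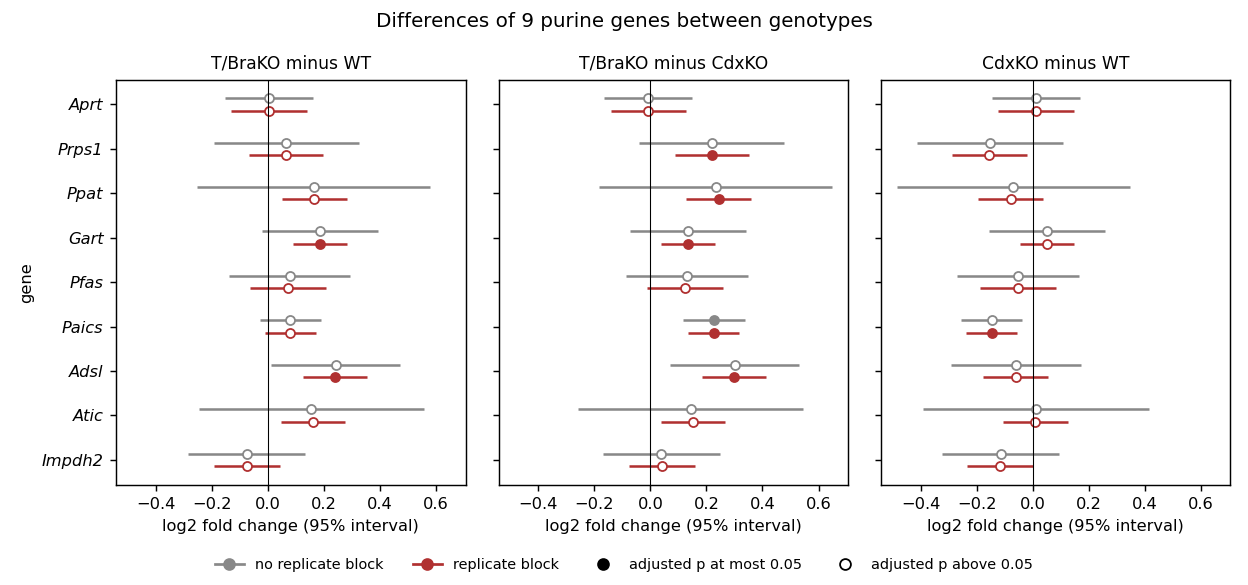
Log2 fold change and 95% interval of the 9 purine genes other than Hprt in the 3 comparisons, without (grey) and with (red) the replicate number as a block. Filled points have an adjusted p of at most 0.05, which without the block holds for Paics between T/BraKO and CdxKO alone. The block narrows the interval of Ppat and Atic the most.

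Aprt (chromosome 8, 122574635 to 122576909), the other base salvage enzyme, showed no called difference between genotypes. It had 2137, 2069 and 2149 normalised counts in WT and 2008, 2089 and 2304 in CdxKO, against 2142, 2062 and 2165 in T/BraKO. The groups overlapped fully, and the log2 difference between T/BraKO and WT was 0.00 (95% interval −0.15 to 0.16, adjusted p = 0.998). In T/BraKO, Aprt averaged 182 TPM and Hprt 210 TPM.

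Prps1 (chromosome X, 140456613 to 140476140), which makes PRPP, had 1828, 1956 and 2205 normalised counts in WT. It had 1613, 1746 and 2026 in CdxKO and 1864, 2121 and 2281 in T/BraKO. Each genotype held a low, a middle and a high library in the order of the replicate number, and the groups overlapped. T/BraKO exceeded CdxKO within all 3 numbers, and the log2 difference of 0.22 passed with the block (SE 0.07, adjusted p = 0.0113) but not without it (SE 0.13, adjusted p = 0.607). Prps1 was the only member with fractional counts, which arise where reads are shared with a near-identical sequence.

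Among the partners of Prps1, 1 gene fell in T/BraKO with and without the block. Prpsap2, an associated protein that is known to restrain PRPP synthetase, had 3347, 3776 and 3628 normalised counts in WT and 3425, 3557 and 3746 in CdxKO. It had 2754, 2529 and 2789 in T/BraKO, all below every library of the other genotypes (the share of such genes is not given here). Its log2 difference was −0.41 against WT (SE 0.09, adjusted p = 2.65e-04) and −0.41 against CdxKO (SE 0.09, adjusted p = 1.28e-04), a fall to 75.1% and 75.2% of their levels. Between CdxKO and WT it was −0.00 (adjusted p = 1.00). With edgeR without the block the adjusted p against WT was 0.0591. Of the 5 listed partners, 4 could be tested and the others did not pass in any comparison, with or without the block.

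Ppat (chromosome 5, 76913249 to 76951578), the committing enzyme of the de novo route, varied more between replicate numbers than between genotypes. It had 5103, 4031 and 5869.7 normalised counts in WT and 5078, 3551 and 5669.9 in CdxKO, against 5699, 4596 and 6504 in T/BraKO. The second replicate was the lowest and the third the highest in each genotype, by a factor of 1.46 (WT), 1.60 (CdxKO) and 1.42 (T/BraKO). Within a replicate number the highest genotype exceeded the lowest by a factor of 1.12 to 1.29. T/BraKO was the highest each time. The log2 difference from CdxKO was 0.24 with the block (SE 0.06, adjusted p = 6.58e-04) and 0.23 without it (SE 0.21, adjusted p = 0.834). Against WT it was 0.17 with the block and did not pass (SE 0.06, adjusted p = 0.0560).

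Gart (chromosome 16, 91621186 to 91646952), a single protein that carries several of the steps after Ppat, had 9932, 9145 and 10654 normalised counts in WT. It had 9942, 9625 and 11246 in CdxKO and 10888, 10668 and 12259.9 in T/BraKO. All T/BraKO libraries lay above all WT libraries, as was so for 4.20% of genes in that direction, while T/BraKO and CdxKO overlapped. The log2 difference from WT was 0.19 with the block (SE 0.05, adjusted p = 0.00368) and 0.19 without it (SE 0.11, adjusted p = 0.928). Against CdxKO the value with the block was 0.13 (SE 0.05, adjusted p = 0.0413).

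Pfas (chromosome 11, 68985697 to 69008460), which uses glutamine in a middle step of the route, was not called in any comparison with or without the block when all libraries were used. It had 8879.9, 8721 and 8765 normalised counts in WT and 8522, 8245 and 8654 in CdxKO, against 9931, 7797 and 10091 in T/BraKO. T/BraKO held both the lowest and the 2 highest libraries, and all CdxKO libraries lay below all WT libraries (4.58% of genes did so). Its log2 difference between T/BraKO and WT was 0.08 (95% interval −0.14 to 0.29). T/BraKO replicate 2 decided these values: without it the log2 difference of T/BraKO from WT was 0.19 (DESeq2 adjusted p = 0.252), and that from CdxKO went from 0.13 to 0.24 and was called (DESeq2 adjusted p = 0.0138).

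Paics (chromosome 5, 76951307 to 76967509), a bifunctional enzyme acting between Gart and Adsl, had the highest TPM of the enzymes leading to IMP in each genotype. It had 18331.5, 18311 and 17705 normalised counts in WT. It had 16382.5, 16499.8 and 16208 in CdxKO and 18796, 19985 and 18656 in T/BraKO. The 3 groups did not overlap: CdxKO was lowest, WT intermediate and T/BraKO highest, with backgrounds of 4.58% of genes for CdxKO below WT, 4.20% for T/BraKO above WT and 7.00% for T/BraKO above CdxKO. The log2 difference between T/BraKO and CdxKO was 0.23 (SE 0.06, adjusted p = 0.00258). That between CdxKO and WT was −0.15 and passed with the block (SE 0.05, adjusted p = 0.0363) but not without it (SE 0.06, adjusted p = 0.458). That between T/BraKO and WT was 0.08 and did not pass with the block (SE 0.05, adjusted p = 0.351) or without it (SE 0.06, adjusted p = 0.991).

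The call of Paics between T/BraKO and CdxKO rested on the pooled spread of 9 libraries. Its adjusted p was 0.101 when only the 6 libraries of these groups were fitted and 0.143 with edgeR, both without the block. Without CdxKO replicate 1, 2 or 3 it was 0.0692, 0.0545 and 0.0783, and without T/BraKO replicate 2 it was 0.0515, with log2 differences of 0.19 to 0.23. With the block it was 3.64e-05.

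Ppat and Paics start 276 bp apart in RefSeq on opposite strands, and their windows shown above do not overlap, with 177 bp between them. The GENCODE gene bodies overlap by 272 bp on opposite strands, and the libraries were strand-specific per the labels. Within each replicate number, CdxKO was the lowest and T/BraKO the highest of the genotypes for both genes. The order of the replicate numbers differed, the second being the lowest for Ppat in each genotype and the highest for Paics in CdxKO and T/BraKO.

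Adsl (chromosome 15, 80948490 to 80970946), a lyase that acts in the route to IMP and again from IMP to AMP, had 3812, 3503 and 3990.2 normalised counts in WT. It had 3528, 3367 and 3949 in CdxKO and 4409, 3969 and 4987 in T/BraKO. All T/BraKO libraries lay above all CdxKO libraries (7.00% of genes did so), while the lowest T/BraKO library lay just under the highest WT library. Within each replicate number T/BraKO was the highest. With the block the log2 difference was 0.24 from WT (SE 0.06, adjusted p = 0.00156) and 0.30 from CdxKO (SE 0.06, adjusted p = 1.03e-05). Without it the adjusted p-values were 0.747 and 0.182.

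Atic (chromosome 1, 71557150 to 71579631), which completes IMP, had 6448, 5426 and 8059 normalised counts in WT and 6587, 5341 and 8163 in CdxKO, against 6789, 6521 and 8881 in T/BraKO. As with Ppat, the second replicate was the lowest and the third the highest in each genotype. The largest within-genotype ratio was 1.53, in CdxKO. T/BraKO was highest within each number, with a log2 difference of 0.16 from WT with the block (SE 0.06, adjusted p = 0.0645) and 0.15 from CdxKO (SE 0.06, adjusted p = 0.0625). Neither passed.

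Impdh2 (chromosome 9, 108560286 to 108565584), the rate-limiting enzyme from IMP to GMP, had 13649.6, 15863 and 14303 normalised counts in WT. It had 12115, 14133 and 14205 in CdxKO and 13135, 13483 and 14959 in T/BraKO. The groups overlapped, and no comparison passed, with log2 values of −0.08, 0.04 and −0.12 for T/BraKO minus WT, T/BraKO minus CdxKO and CdxKO minus WT. Impdh2 and Paics had the highest TPM of the 10 genes, at 655 and 613 TPM in WT and 606 and 632 TPM in T/BraKO.

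The replicate number ordered several of these genes alike. For 5 of the 9 genes the 3 replicates stood in the same order in all genotypes, Prps1 in the order of the numbers and Ppat, Gart, Adsl and Atic with the second lowest and the third highest. Libraries with the same number deviated together over 12316 genes, and the share of all genes with a common order was not counted. Within replicate numbers, T/BraKO exceeded WT in all 3 for 6 of the 9 genes, where 25.3% of all genes did so, and exceeded CdxKO in all 3 for 6 of the 9, where 26.7% did. CdxKO exceeded WT in all 3 for Gart alone (21.7% of all genes) and was below WT in all 3 for 6 of the 9, Prps1, Ppat, Pfas, Paics, Adsl and Impdh2 (21.1% of all genes). Within each genotype the first replicate was the shallowest library and had the highest share of counts on the ribosomal RNA gene Rn45s, between 1.69% and 4.21% against 0.343% to 0.992% in the others. Their part in these orders was not tested.

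**Figure D4:**
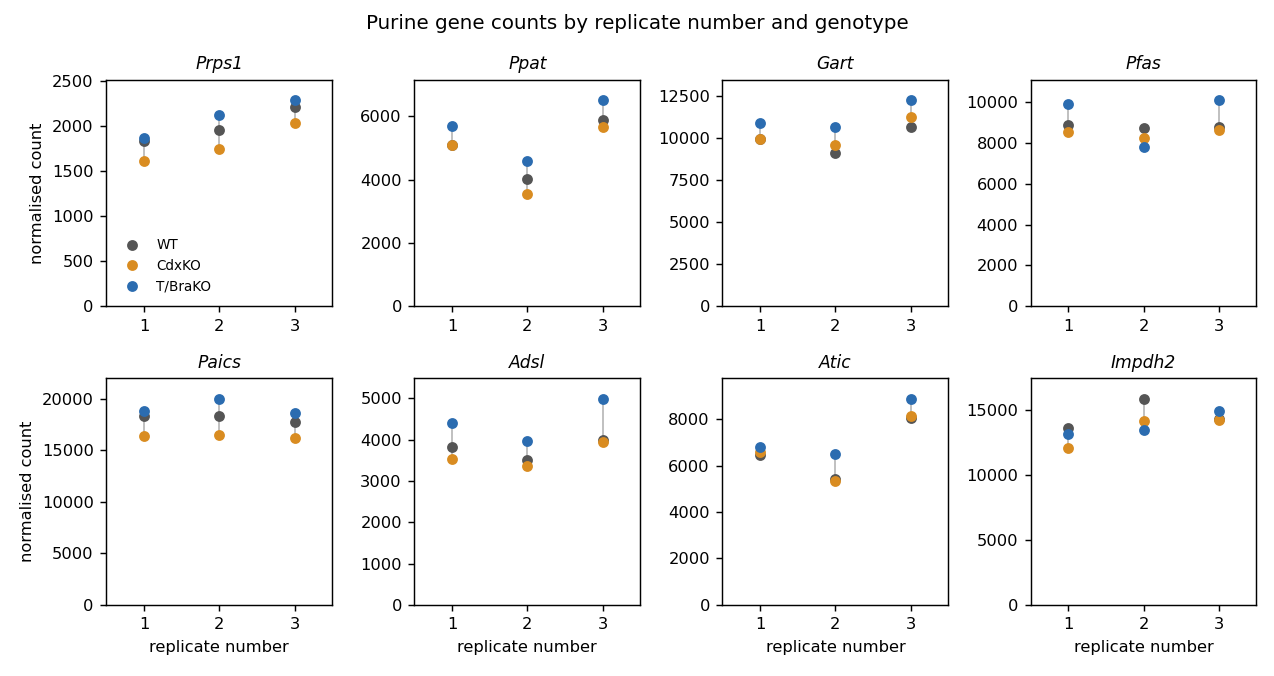
Normalised counts of 8 purine genes by replicate number, with 1 point per library coloured by genotype and a grey line joining the libraries of the same number. In Ppat and Atic the points move together with the replicate number by more than the genotypes differ. In Paics, CdxKO is the lowest and T/BraKO the highest at each number, but T/BraKO and WT were not called different.

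The wider nucleotide pathways held few called genes. Over 7 lists, from PRPP synthetase partners to nucleoside transporters, 83 of 84 genes were in the table. Without the block, DESeq2 called Prpsap2 in T/BraKO against WT and against CdxKO and 0 genes between CdxKO and WT, with 3, 6 and 3 genes at an unadjusted p under 0.05. EdgeR called 0, 1 and 0, with 3, 6 and 2 genes at an unadjusted p under 0.05. With the block, 7 of 75 tested genes were higher and 3 lower in T/BraKO than in WT, that is 9.33% and 4.00%, where 4.17% and 4.38% of all genes were. Against CdxKO 8 of 76 were higher and 4 lower, that is 10.5% and 5.26%, where 6.90% and 7.75% of all genes were. Between CdxKO and WT 3 of 75 were higher and 0 lower, where 3.40% and 1.91% of all genes were.

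In the branches from IMP, Impdh1, the second IMP dehydrogenase, was higher in T/BraKO than in WT (log2 0.28, adjusted p = 0.00166) and CdxKO (0.24, adjusted p = 0.00623) with the block. Adssl1, an adenylosuccinate synthase best known from muscle, was lower (log2 −0.68, adjusted p = 5.89e-04, and −0.73, adjusted p = 9.61e-05). The other 2 of the 4 genes of this list did not pass. Without the block none of the 4 passed, and 0 of them had an unadjusted p under 0.05 in any comparison, and edgeR called 0.

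Of the 18 measured genes of purine salvage and breakdown, 1 passed with the block, Itpa, which removes inosine triphosphate, at log2 0.21 in T/BraKO against WT (adjusted p = 0.0355). The list held 14 genes with an adjusted p there, and their median log2 difference was 0.02 beside 0.01 for all genes. The list of nucleotide phosphorylation and reduction had 0 of 11 genes called in any comparison by DESeq2 or edgeR, with or without the block, and by DESeq2 3 of 11 had an unadjusted p under 0.05 between T/BraKO and WT with the block and 0 without it.

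The one-carbon list, whose enzymes feed formyl groups to Gart and Atic, differed mainly by gene. With the block, Psat1, Psph and Shmt2, enzymes of serine and glycine synthesis, were higher in CdxKO than in WT, at log2 0.21, 0.46 and 0.29. The folate carrier gene Slc19a1 was higher in T/BraKO than in WT (0.37) and CdxKO (0.44), and Psat1 was higher in T/BraKO than in WT (0.18). Shmt1 (0.26) was higher and Aldh1l2 (−0.58) lower in T/BraKO than in CdxKO. Over the 17 genes the median log2 difference was 0.13 between T/BraKO and WT and −0.03 between T/BraKO and CdxKO.

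In pyrimidine metabolism, which also draws on PRPP, Umps, the enzyme that uses PRPP to make UMP, was higher with the block in T/BraKO than in WT (0.23) and CdxKO (0.22). Dtymk was higher against both (0.19 and 0.21), Cad against CdxKO (0.26), and Upp1, a uridine phosphorylase, was lower against both (−0.49 and −0.43). The other tested genes of this list of 19 did not pass. Of 9 transporter genes, Slc29a1 was higher in T/BraKO than in WT (0.53) and Slc29a4 higher than in CdxKO (0.46).

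Since Hprt is itself used as a reference transcript, 13 others in common use were examined. Without the block, DESeq2 called 0 of 13 in each comparison, with 1, 0 and 1 at an unadjusted p under 0.05, and edgeR also called 0. With the block, Actb and Tfrc were higher in T/BraKO than in WT (log2 0.24 and 0.35) and in CdxKO than in WT (0.23 and 0.23). The medians of the 13 were 0.03, 0.02 and 0.04 log2 for T/BraKO minus WT, T/BraKO minus CdxKO and CdxKO minus WT.

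Across the 9 libraries, the genes whose log2 normalised counts followed Hprt most closely among 12525 genes were Igsf9 (r = 0.952), Rbmx (0.948), Hnrnph1 (0.947), Ube2q2 (0.938) and Sp5 (0.934). Those most opposite were Klhl32 (−0.978), Hnrnph3 (−0.977), Igfbp3 (−0.972), Naip7 (−0.970) and Alox15 (−0.968). Hnrnph1 had 10621 to 13294 normalised counts in WT and 10648 to 12835 in CdxKO, against 18965 to 23031 in T/BraKO. Hnrnph3 had 3924 to 4174, 3585 to 4129 and 1936 to 2374. Among the purine genes r with Hprt was 0.754 for Adsl, 0.733 for Paics and 0.622 for Gart, and ran from −0.096 for Impdh2 to 0.414 for Prps1 in the other 6. These values describe 9 points that share 3 genotypes, so that a gene high or low in T/BraKO scores near the extremes.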

How the data were processed

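Poly(A) RNA of 9 cultures was read by the authors from a single end (76 bp) in strand-specific libraries. Per the labels, the authors used cutadapt 1.16, STAR 2.5.2a and RSEM 1.3.0 on mm10, and deposited expected counts, which are estimates that need not be whole, and TPM per gene. No deposited column of another sample was present. The deposited expected counts were rounded and fitted with DESeq2 1.42.0 in R 4.3.3 (Wald test, genotype term, all 9 libraries, default size factors and independent filtering, unshrunken log2 fold changes, adjusted p of at most 0.05). The deposited TPM gave levels between genes and was not tested, so pseudocount and TPM filter settings did not apply to the tests. Scripts were tested on simulated data without a replicate effect, with absolute log2 changes of 1 and 2. DESeq2 without the block recovered 78.6% of 98 genes changed by 1 and 95.1% of 102 changed by 2, with 58 false calls. EdgeR recovered 65.3% and 91.2%, with 11 false calls. Changes as small as those of the 9 purine genes and fits with the block were not simulated.

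Groups and replicate numbers came from the titles, which call the libraries biological replicates. Deviations from the genotype means correlated for every pair of libraries with the same number (mean r 0.703, 0.532 to 0.814, 9 pairs, 12316 genes). The numbers were therefore taken to pair the libraries. For different numbers r averaged −0.340 (18 pairs). Deviations within a genotype cancel by construction, so this negative value was no separate support. Within a genotype, every pair of libraries differed by more than sampling noise. Values with the block are printed where a call changes.

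Named genes were the 10 members, the listed genes called in either fit, and Prps1l3. Also named were the neighbours within 0.5 Mb of Hprt with a mean count of at least 10. The 5 genes most like and most unlike Hprt were named among genes with a mean of at least 50 in their highest group. A gene could thus enter that ranking through a single genotype. Results for some single listed genes are not reported here. The members and lists were chosen with earlier results of these data known. Alternatives were TMM factors, a filter of 10 counts in 3 libraries, the replicate block, edgeR 4.0.16, fits to 6 libraries, adjusted p limited to 0.01, absolute log2 fold changes over 1 and leaving out each library. Fits with the block that left out a replicate number, TMM with the block and scaling to 13 reference transcripts were added after the data were seen. Coordinates are from GENCODE M21 (GRCm38, the assembly of mm10) and promoters from RefSeq.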

Additional observations from a re-analysis of the deposited data

Results flagged for a closer look

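The differences of the mutant lines from WT were unequal for Paics: T/BraKO minus WT was 0.08 and CdxKO minus WT −0.15 on the log2 scale, and their difference of 0.23 passed the DESeq2 test (adjusted p = 0.00258), with T/BraKO higher than CdxKO in 3 of 3 replicate numbers. They were also unequal for Prpsap2: T/BraKO minus WT was −0.41 and CdxKO minus WT −0.00, and their difference of −0.41 passed the DESeq2 test (adjusted p = 1.28e-04), with T/BraKO lower in 3 of 3. Both differences are the direct comparison of T/BraKO with CdxKO already given.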

How the results depend on the processing

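The number of the 9 purine genes called depended on the replicate block. Between T/BraKO and WT it was 0 without the block and 2 with it, in DESeq2, edgeR and with TMM factors, and 1 with the block and scaling to 13 reference transcripts. Between T/BraKO and CdxKO it was 1 without the block, and 5 with it in the same 3 fits or 6 with the reference scaling. Without the block it was 0 with edgeR, in the fit to 6 libraries and at an absolute log2 fold change above 1. Between CdxKO and WT it was 0 without the block, 1 with it, 1 with TMM factors and the block, 2 with the reference scaling and the block, and 0 with edgeR and the block. Leaving out 1 library at a time gave 0 to 0, 0 to 2 and 0 to 0 calls in the 3 comparisons. The 0 came without any CdxKO library, and the 2, Pfas and Adsl, without T/BraKO replicate 2. With the block and 1 replicate number left out, the counts were 0 to 1, 3 to 3 and 0 to 0. Adsl was the 1 against WT, without the second number. Gart then lost its call each time (adjusted p = 0.0744, 0.148 and 0.264 against WT).

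The values called without the block, Paics between T/BraKO and CdxKO and Prpsap2 in both T/BraKO comparisons, changed sign in none of their alternatives. Atic between T/BraKO and CdxKO was called with the block and the reference scaling (log2 0.16, adjusted p = 0.0422) and had a log2 value of −0.01 without T/BraKO replicate 3. Of Prpsap2's 21 alternatives, its call held in 20 against WT and in 21 against CdxKO. Counts over all genes rose from 207, 561 and 116 to 1215, 2187 and 736 with the block, and were 56, 237 and 16 with edgeR. The block also moved the split, from 28 higher and 179 lower to 593 and 622 for T/BraKO minus WT. With the block, scaling to the reference transcripts turned that into 275 higher and 944 lower, and for CdxKO minus WT turned 471 and 265 into 297 and 669. It moved the median of all genes by at most 0.06 log2, and Gart and Atic between CdxKO and WT, neither called, then had log2 values of −0.01 and −0.05. Hprt rested on 18 to 25 counts in each WT and CdxKO library, and intervals cover only the spread of 3 libraries a group.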
